A study of Mus musculus with 24 samples.

Results

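The 8 genes described here encode protein kinase A (PKA) subunits and inhibitors: the regulatory subunits Prkar1a, Prkar1b, Prkar2a and Prkar2b, the catalytic subunits Prkaca and Prkacb, and the inhibitor peptides Pkia and Pkig. They were taken by gene symbol from a table of 21957 genes, with the probe set of highest mean signal for each gene, and 7 of the 8 could be tested. The only probe set for Pkig is shared with another symbol, so no value is given for Pkig. All 7 tested members had a log2 signal over 5 in each of the 24 arrays, and 14411 genes passed that floor in at least 4 arrays.

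RNA came from whole adrenal glands of mice aged 7 months on a mixed sv129-C57Bl/6 background, with 6 groups of 4 arrays labelled as biological replicates. The knockouts (KO), which are females, intact males and gonadectomized (GDX) males, carried 2 floxed Prkar1a alleles, 1 copy of Cre inserted at Cyp11b2 (Cyp11b2tm1.1(cre)Brlt) and 2 copies of the mTmG fluorescent Cre reporter. Their wild-type (WT) references were not uniform. WT females carried Cre with 1 floxed allele, whereas WT intact males carried 2 floxed alleles and no Cre. Among the WT GDX males, the first had neither Cre nor a floxed allele, the second and the third had Cre and no floxed allele, and the fourth had Cre with 1 floxed allele. All of these controls had 2 copies of mTmG except the second WT GDX male, which had 1. GDX males had been without gonads for the last 2 months.

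PKA is held inactive as a complex of catalytic subunits bound to a regulatory dimer. When cyclic AMP (cAMP) binds the regulatory subunits, the catalytic subunits are freed to phosphorylate their targets. In the adrenal cortex this pathway carries the signal of the pituitary hormone ACTH to steroid synthesis. Type I regulatory subunits (Prkar1a and Prkar1b) are largely cytosolic, and type II subunits (Prkar2a and Prkar2b) are mostly held at organelles by A-kinase anchoring proteins. In humans, inactivating mutations of PRKAR1A cause Carney complex, with a nodular adrenal disease, and activating mutations of PRKACA are found in cortisol-producing adenomas. Cyp11b2 encodes aldosterone synthase of the outermost cortical zone, the zona glomerulosa, so Cre acts in glomerulosa cells and in cells that descend from them, and the other cells of the gland keep Prkar1a. The comparisons ask whether the other subunits were higher where Prkar1a was lost.

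The promoter sequences of the members were searched because cAMP acts on many genes through the cAMP response element, TGACGTCA, bound by CREB-family factors. RefSeq promoter windows (GRCm38.p6), each spanning an annotated start, were matched for 7 members, 22 windows in all, and not for Pkia. The element was found in 2 of 6 windows of Prkar1a, which overlap, and in no window of another member. Among all 32851 windows, 588 (1.79%) held it on either strand. Its core, TGACG or CGTCA, which every full element also contains, was in 8 of the 22 windows and in 20.8% of all windows. Those 8 were 3 windows of Prkar1a and 1 each of Prkaca, Prkacb, Prkar1b, Prkar2a and Pkig. The steroidogenic factor motif AAGGTCA was in 1 window, of Prkar1b, and in 4.72% of all windows. Printed here are the Prkar1a stretch with the full element, at chr11:109650889-109650918 on the plus strand and 49 bases before an annotated start, and the promoter of Prkaca, the catalytic gene that was higher in KO females, at chr8:83972828-83972977 on the plus strand. The capitals mark the full element in Prkar1a and, in Prkaca, 2 cores that lie 120 and 6 bases before the start. These matches describe letters in the reference sequence.
Prkar1a: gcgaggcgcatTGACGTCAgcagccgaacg
Prkaca: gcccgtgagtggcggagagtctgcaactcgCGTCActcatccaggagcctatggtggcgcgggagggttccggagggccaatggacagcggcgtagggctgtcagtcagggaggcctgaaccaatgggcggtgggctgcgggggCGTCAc

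The arrays were alike in overall signal, with medians between 5.20 and 5.29 on the log2 scale and correlations between arrays of a group of 0.989 to 0.995 over all probe sets. Markers of the steroidogenic cortex were strongly detected in every group, with group means of 11.9 to 12.2 over 8 genes. The KO females differed from the WT females in the makeup of their RNA. Of the markers tested, 12 of 18 medulla, 7 of 11 adipocyte, 10 of 11 glomerulosa and 8 of 11 capsule and mesenchymal genes were lower, 4 of 12 macrophage and 5 of 8 steroidogenic cortex genes were higher, and 1 of 10 endothelial genes was lower. Among all genes 32.6% differed between these groups, 13.9% being higher and 18.7% lower. Among the other KO comparisons, intact males had none of these markers past the test, and GDX males had 2 glomerulosa genes and 1 capsule gene lower and 2 cortex genes higher. Of all genes, 0.111% passed in intact males and 4.23% in GDX males. In whole-gland RNA, fewer cells of a type and less RNA per cell cannot be told apart, and a signal is the gland's average over cells that did and did not recombine.

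Among the 7 tested members, Prkaca was the only gene whose signal was higher, past the test, in a comparison of KO with WT glands, and this was the female comparison. In KO females 4 of the 7 members differed from WT females, with Prkar1a, Prkar1b and Pkia lower and Prkaca higher. Among all 14411 genes, 32.6% differed in this comparison (13.9% higher and 18.7% lower), so a count of 4 members is read against that share. In GDX males Prkar1a alone passed the test, where 4.23% of all genes did. In intact males no member passed in limma after Benjamini-Hochberg adjustment, where 0.111% of all genes did, and 2 of the 7 members, Prkar1a and Prkar2a, had an unadjusted p under 0.05, against 7.49% of all genes. The arrays of KO and WT did not overlap for 3 members in females (32.8% of all genes), for Prkar1a in intact males (4.45% of all genes) and for Prkar1a in GDX males (9.62% of all genes). Without Prkar1a, the median log2 change of the other 6 members was 0.01 for the female comparison, where all genes had -0.02. It was -0.01 for intact males, where all genes had -0.01, and 0.05 for GDX males, where all genes had -0.01.

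Prkar1a, which encodes the main type I regulatory subunit and is the gene floxed in these mice, was lower in every KO group. The log2 signals were 7.30, 7.00, 7.35 and 6.67 in KO females, against 8.43, 8.53, 8.54 and 8.52 in WT females. The KO mean was 37.2% of the WT mean (95% interval 26.9% to 51.4%; log2 change -1.43 ± 0.23 SE, adjusted p = 5.83e-05). No KO female reached the lowest WT female. In intact males the signals were 6.89, 8.08, 8.47 and 8.13 in KO glands, against 8.89, 8.72, 8.75 and 8.91 in WT glands. Although these arrays did not overlap, KO male 1 lay far below the other 3, and the log2 change of -0.92 ± 0.23 did not pass in limma (adjusted p = 0.16). Without KO male 1 the change was -0.59 (adjusted p = 0.411), and without KO male 3 it was -1.12 (adjusted p = 0.0498). In GDX males the signals were 7.99, 7.66, 7.30 and 7.45 in KO glands, against 8.94, 8.92, 8.73 and 8.59 in WT glands. The GDX change was -1.19 ± 0.23 (adjusted p = 0.00477), leaving 43.7% of the WT mean. Where the probe set lies relative to the floxed exons was not known.

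The WT arrays also sorted by Prkar1a genotype. In the 5 controls with Cre and 1 floxed allele, the log2 signal averaged 8.52 ± 0.06 (SD), with a range of 8.43 to 8.59. In the 7 controls that lacked Cre or a floxed allele it averaged 8.84 ± 0.10, with a range of 8.72 to 8.94. The ranges did not overlap. Of the 5, 4 are females and all 7 are males, so that Prkar1a dosage and sex cannot be told apart. The only male of the 5, WT GDX male 4, had 8.59, the lowest of the WT males. The next lowest were WT male 2 (8.72) and WT GDX male 3 (8.73), and a single animal cannot separate dosage from sex. The grouping by genotype was made after the values were seen and was not tested.

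**Figure D1:**
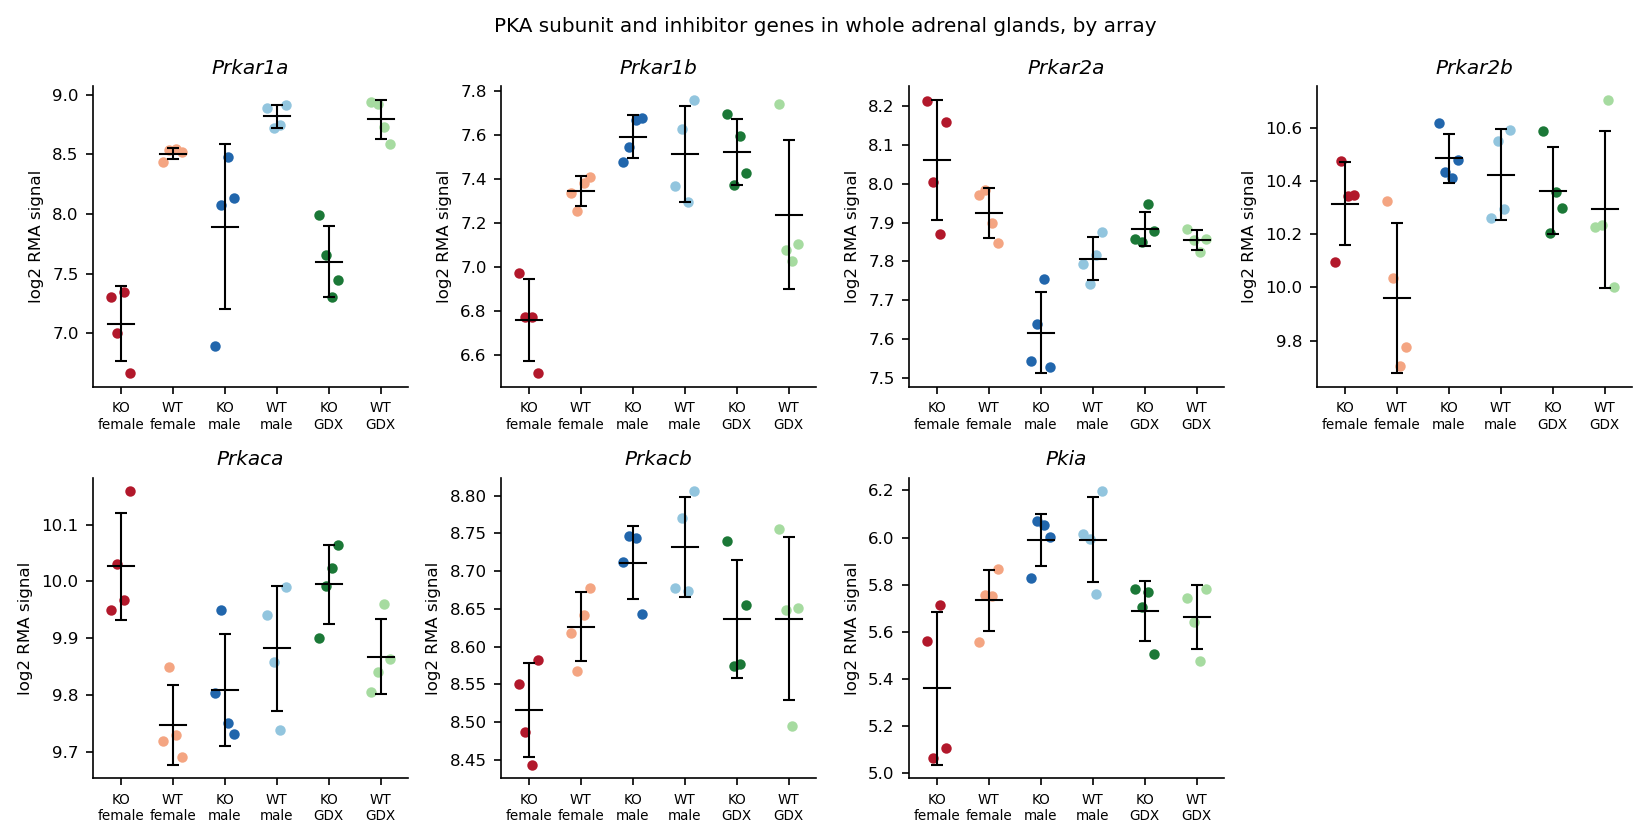
Log2 RMA signal (vertical axis, scaled separately for each gene) of the 7 tested PKA genes in the 24 arrays, by group. Points are arrays, and bars are the mean ± SD of 4 arrays; the KO females are the lowest group for Prkar1a (6.67 to 7.35) and Prkar1b (6.52 to 6.97).

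Prkar1b encodes the other type I regulatory subunit, known mainly from the nervous system. It was not higher where Prkar1a was lost in females: the signals were 6.97, 6.77, 6.77 and 6.52 in KO females, against 7.34, 7.26, 7.38 and 7.41 in WT females. The groups did not overlap, and the log2 change was -0.59 ± 0.13 (adjusted p = 0.00177), a fold change of 0.665. Intact males gave 7.48, 7.55, 7.67 and 7.68 in KO glands, against 7.37, 7.63, 7.30 and 7.76 in WT glands. These overlapped throughout, with a change of 0.08 (95% interval -0.20 to 0.36). In GDX males the signals were 7.70, 7.37, 7.60 and 7.43 in KO glands, against 7.74, 7.08, 7.03 and 7.10 in WT glands. Here WT GDX male 1, the animal with neither Cre nor a floxed allele, stood apart from the other 3 controls. With it the change was 0.29 ± 0.13 (adjusted p = 0.233), and without it 0.46 ± 0.11 (adjusted p = 0.0205), so 1 array decided that call.

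Medulla markers moved with Prkar1b. The mean log2 signal of 18 medulla genes was 8.08 to 8.53 in KO females, against 8.61 to 8.95 in WT females. When this mean was entered as a covariate, the female change of Prkar1b was -0.26 ± 0.12 (adjusted p = 0.166). In that fit 2458 genes passed for the female comparison, against 4694 without the covariate. WT GDX male 1, high for Prkar1b, also had the highest medulla mean of the WT GDX arrays, 9.18. Across the 24 arrays, as deviations from group means, Prkar1b and the medulla mean had a Pearson r of 0.723 (adjusted p = 0.0162, permutation within groups, two-sided) and a Spearman rho of 0.707 (adjusted p = 0.0134, permutation). Without the 2 arrays farthest from the median of the medulla mean, r was 0.616. This was the only 1 of 21 relations between 3 marker means (medulla, adipocyte, glomerulosa) and 7 members that passed. The part of medulla RNA in the Prkar1b difference was not tested beyond these values.

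**Figure D2:**
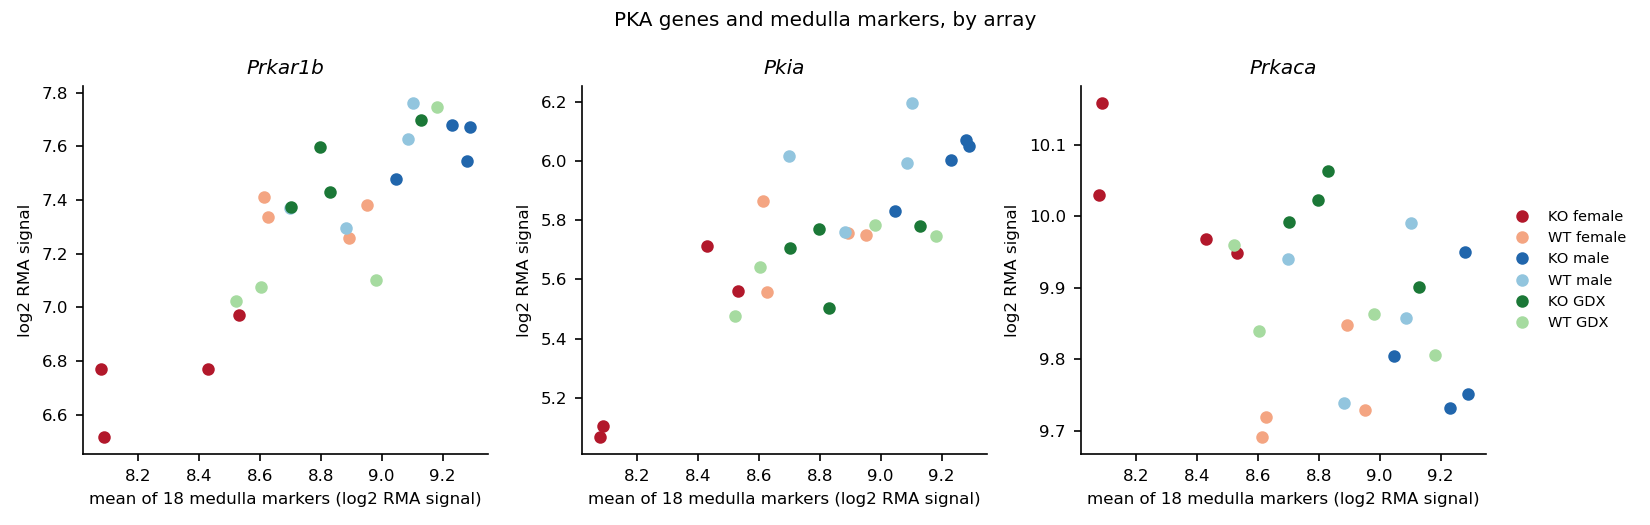
Log2 RMA signal of Prkar1b, Pkia and Prkaca (vertical axes) against the mean log2 signal of 18 medulla markers (horizontal axis), with 1 point per array coloured by group. The KO females lie at the low end of the medulla axis (8.08 to 8.53), low for Prkar1b and Pkia and high for Prkaca.

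The type II regulatory subunits showed no change past the test in any KO comparison. Prkar2a, widely expressed, had 8.21, 8.01, 7.87 and 8.16 in KO females, against 7.97, 7.98, 7.90 and 7.85 in WT females, with a log2 change of 0.14 ± 0.07 (adjusted p = 0.12). Without KO female 1, the highest of the KO females, the change was 0.0865 (adjusted p = 0.353), and without KO female 3, the lowest, it was 0.20 ± 0.06 (adjusted p = 0.0188). In intact males its signals were 7.54, 7.64, 7.75 and 7.53 in KO glands, against 7.79, 7.74, 7.82 and 7.88 in WT glands. Of these KO arrays 3 lay below every WT array, and the change of -0.19 ± 0.07 had an unadjusted p of 0.00867 and an adjusted p of 0.462. GDX males had 7.85 to 7.95 in KO glands and 7.82 to 7.88 in WT glands, a change of 0.03 (95% interval -0.11 to 0.17).

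Prkar2b, the type II subunit prominent in adipose and endocrine tissue, had 10.10, 10.47, 10.34 and 10.35 in KO females, against 10.33, 10.04, 9.70 and 9.78 in WT females. The groups overlapped through KO female 1 and WT female 1. The log2 change was 0.35 ± 0.14 with an adjusted p of 0.0538 (1.28-fold, 95% interval 0.07 to 0.64 on the log2 scale), just short of passing at 0.05. Leaving out single arrays gave changes of 0.27 (without WT female 3, adjusted p = 0.179) to 0.48 (without WT female 1, adjusted p = 0.0119), and the change also passed without KO female 1 (0.43, adjusted p = 0.0329). Adipocyte markers also differed between these groups, with means of 7.11 to 7.83 in KO females and 8.16 to 9.47 in WT females. With that mean as a covariate the Prkar2b change was 0.55 ± 0.16 (adjusted p = 0.0171). The adipocyte means did not overlap, so that fit cannot tell the Prkar2b change apart from the adipocyte difference. With the medulla mean as a covariate the Prkar2b change was 0.24 ± 0.17 (adjusted p = 0.385). In both male comparisons Prkar2b overlapped between KO and WT. The change was 0.06 for intact males (95% interval -0.23 to 0.35) and 0.07 for GDX males (-0.22 to 0.36), and of these the GDX interval reaches the size seen in females.

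Prkaca encodes the main catalytic subunit. Its signals were 9.95, 10.03, 9.97 and 10.16 in KO females, against 9.72, 9.85, 9.73 and 9.69 in WT females. Every KO female was above every WT female, and the log2 change was 0.28 ± 0.07 (adjusted p = 0.00265), a 1.21-fold difference. With the medulla mean as a covariate it was 0.22 ± 0.08 (adjusted p = 0.0693). Intact males had 9.80, 9.95, 9.75 and 9.73 in KO glands, against 9.94, 9.86, 9.74 and 9.99 in WT glands. The groups overlapped, with a change of -0.07 (adjusted p = 0.878). GDX males had 9.90, 9.99, 10.02 and 10.06 in KO glands, against 9.81, 9.84, 9.96 and 9.86 in WT glands. Only the lowest KO array fell within the WT range, and the change was 0.13 (95% interval -0.01 to 0.27, adjusted p = 0.299).

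Prkacb, the other catalytic subunit, was the steadiest member, with group means between 8.52 in KO females and 8.73 in WT intact males. Its signals were 8.55, 8.49, 8.44 and 8.58 in KO females, against 8.62, 8.57, 8.64 and 8.68 in WT females. The ranges overlapped by 1 array, and the change of -0.11 ± 0.06 had an adjusted p of 0.152. Intact males gave a change of -0.02 (adjusted p = 0.972), and the 95% interval for GDX males was -0.12 to 0.12.

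Pkia encodes a peptide that binds free catalytic subunits, blocks them and carries them out of the nucleus. It was the dimmest member, close to the floor of 5, with 5.56, 5.07, 5.71 and 5.11 in KO females, against 5.56, 5.76, 5.75 and 5.86 in WT females. KO females 2 and 4 lay well below all WT females, and the other 2 KO arrays fell within the WT range. The log2 change was -0.37 ± 0.12 (adjusted p = 0.0251), a fold change of 0.773. The call was lost without KO female 2 (adjusted p = 0.109), KO female 4 (0.103), WT female 2 (0.0535), WT female 3 (0.0526) or WT female 4 (0.0701), and with the medulla mean as a covariate the change was -0.11 (adjusted p = 0.634). The call was also lost when only the female groups were fitted (-0.37 ± 0.15, adjusted p = 0.0894). In intact males the signals were 5.83 to 6.07 in KO glands and 5.76 to 6.20 in WT glands, and in GDX males 5.50 to 5.78 in KO glands and 5.48 to 5.78 in WT glands. The change was -0.00292 between the intact groups (adjusted p = 0.999) and 0.03 between the GDX groups (0.94).

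**Figure D3:**
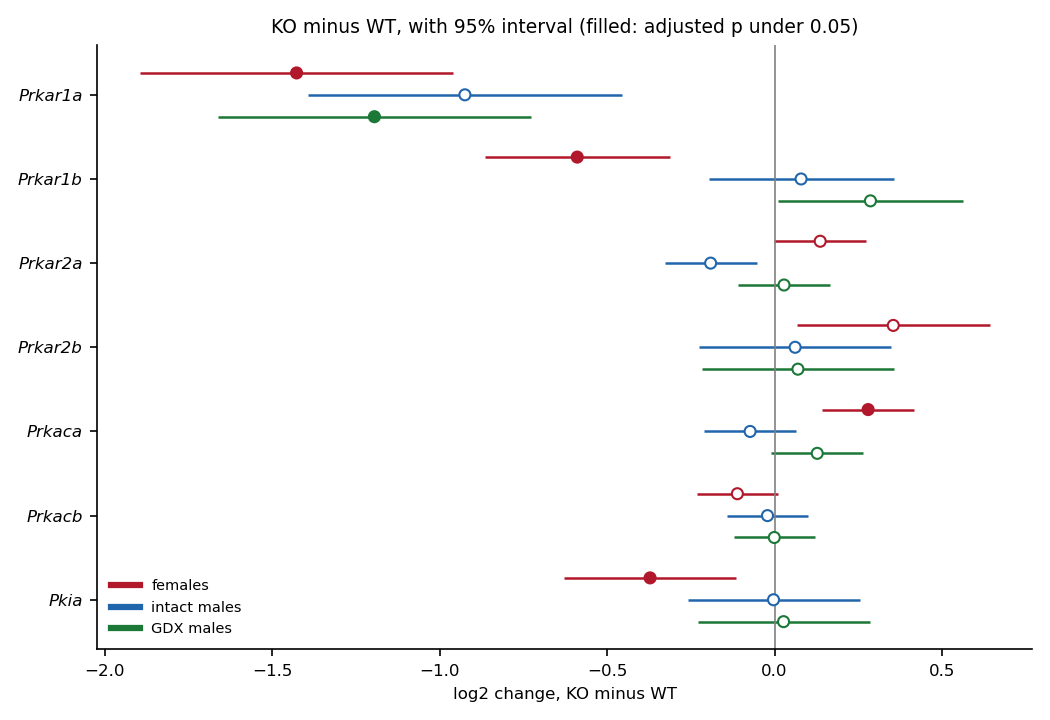
Log2 change, KO minus WT (horizontal axis), of the 7 PKA genes in females, intact males and GDX males, with 95% intervals; filled points passed an adjusted p of 0.05. The intervals of Prkar1a lie below 0 in all 3 comparisons, and Prkar1b (-0.59), Prkaca (0.28) and Pkia (-0.37) are filled for females alone.

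The KO effect itself differed between females and intact males for 3 members, where 16.0% of all genes differed (7.19% with a higher and 8.78% with a lower KO effect in females). The differences between effects on the log2 scale, female minus intact male, were -0.67 ± 0.19 for Prkar1b (adjusted p = 0.0199), 0.33 ± 0.09 for Prkar2a (0.0215) and 0.35 ± 0.09 for Prkaca (0.0144). The Prkar2a difference was 0.29 without KO female 4 (adjusted p = 0.0511). With the medulla mean as a covariate these were -0.15, 0.38 and 0.26, with adjusted p from 0.115 to 0.737. The fall of Prkar1a itself was not shown to differ (-0.50 ± 0.32, adjusted p = 0.305), but without KO male 1, the intact KO male of lowest Prkar1a, the difference was -0.84 (adjusted p = 0.011). For Pkia the difference was -0.37 (adjusted p = 0.159), and without KO female 3 it was -0.49 (adjusted p = 0.0425). Between females and GDX males only the effect on Prkar1b differed, by -0.88 ± 0.19 (adjusted p = 0.0141), where 3.31% of all genes did. Between GDX and intact males no member's effect differed in limma, where 0.0278% of all genes did, and 2 members had an unadjusted p under 0.05, against 9.44% of all genes. These 3 comparisons share arrays with one another and with the KO comparisons. Their WT references also differ in Cre and in floxed alleles, so sex or gonadectomy cannot be told apart from control genotype.

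Among KO mice, 6 of the 7 members differed between females and intact males, 2 higher and 4 lower in females, where 41.0% of all genes differed (17.8% higher and 23.1% lower). The log2 differences were 0.45 ± 0.07 for Prkar2a (adjusted p = 1.73e-05), 0.22 ± 0.07 for Prkaca (0.0114), -0.84 ± 0.13 for Prkar1b (3.68e-05), -0.81 ± 0.23 for Prkar1a (0.00596), -0.63 ± 0.12 for Pkia (0.000345) and -0.20 ± 0.06 for Prkacb (0.00972). The exception was Prkar2b (-0.17, adjusted p = 0.348). The arrays of KO females and KO intact males did not overlap for 4 members (36.6% of all genes): Prkar1b, Prkar2a, Prkacb and Pkia. Medulla markers differed alongside, with means of 8.08 to 8.53 in KO females and 9.05 to 9.29 in KO intact males, and with that mean as a covariate Prkar2a alone passed. The means did not overlap, so that fit cannot tell sex apart from the medulla difference. In it the SE of Prkar1a rose from 0.23 to 0.37. Prkaca gave 0.17 without KO female 4 (adjusted p = 0.0537) and 0.13 after another round of quantile normalization (adjusted p = 0.124). Prkar1a had an adjusted p of 0.0666 when only these 2 groups were fitted.

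WT females differed from WT intact males for 1 member, Prkar2b, by -0.46 ± 0.14 (adjusted p = 0.042), where 7.75% of all genes differed. That call was lost when any of WT females 2, 3 or 4 or WT males 2, 3 or 4 was left out (adjusted p of 0.055 to 0.142). The 2 WT groups also differ in Cre and in Prkar1a genotype.

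Between KO GDX and KO intact males Prkar2a alone passed, with 7.88 ± 0.04 in KO GDX males, against 7.62 ± 0.10 in KO intact males (SD, n = 4 each, log2 difference 0.27 ± 0.07, adjusted p = 0.00901), where 15.4% of all genes differed. Prkaca was 9.995 ± 0.07 in KO GDX males, against 9.81 ± 0.10 in KO intact males, with an adjusted p of 0.0608. It passed without KO male 2 (0.23, adjusted p = 0.0342) or KO GDX male 1 (0.22, adjusted p = 0.0368). Prkar1a was 7.60 ± 0.30 in KO GDX males, against 7.89 ± 0.69 in KO intact males (adjusted p = 0.414), but without KO male 1 the difference was -0.63 (adjusted p = 0.00989). Between WT GDX and WT intact males no member differed in limma, where 4.50% of all genes did. An unadjusted p under 0.05 was seen for 2 members, against 17.8% of all genes. Without WT GDX male 1, Prkar1b was lower in WT GDX males by 0.45 on the log2 scale (adjusted p = 0.0214). The WT intact males carried 2 floxed alleles and no Cre, and the WT GDX males other than male 1 carried Cre. Gonadectomy therefore cannot be told apart from genotype in this comparison.

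**Figure D4:**
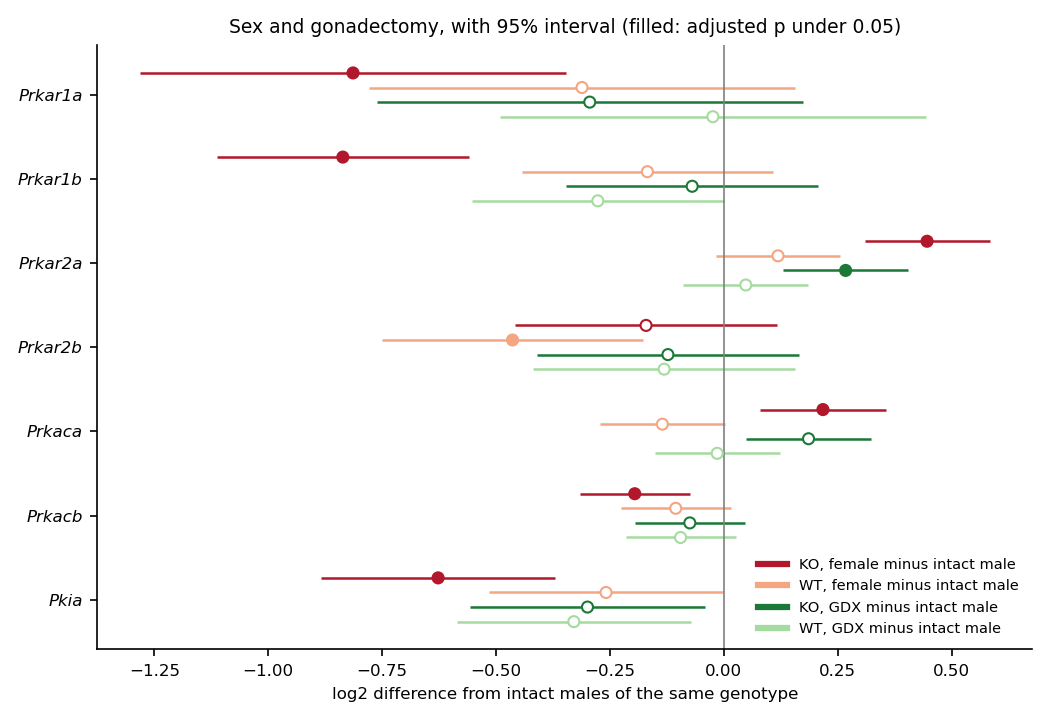
Log2 difference of the 7 PKA genes between females or GDX males and intact males of the same genotype (horizontal axis), with 95% intervals; filled points passed an adjusted p of 0.05. The KO female points of 6 genes are filled, Prkar2b being the exception (-0.17), against 1 KO GDX point (Prkar2a, 0.27), 1 WT female point (Prkar2b, -0.46) and no WT GDX point.

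Ordered by group mean, Prkar1a had the 3 WT groups on top and the 3 KO groups below. Its only neighbours without overlapping arrays were WT GDX males (8.79) and WT females (8.51), and KO male 3 alone (8.47) reached the range of the WT females. For Prkar1b the only gap between neighbours lay between WT GDX males (7.24) and KO females (6.76). For Prkar2a, Prkar2b, Prkaca, Prkacb and Pkia every pair of neighbours in the order overlapped. Prkaca was highest in KO females (10.03) and KO GDX males (9.995), and Pkia was highest in WT and KO intact males (5.99 in each). Probe sets bind with unequal strength, so the levels of different members were not compared.

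Within the KO groups, a gland with less Prkar1a was not shown to have more of another subunit. Over the 12 KO arrays, as deviations from group means, 6 relations with Prkar1a were computed. None passed adjustment in an exact two-sided permutation test within groups. Prkaca ran opposite to Prkar1a, with a Pearson r of -0.438 (adjusted p = 0.473, exact permutation) and a Spearman rho of -0.650 (adjusted p = 0.0862, exact permutation), and r was -0.541 without the 2 arrays farthest from the median of Prkar1a. Prkar1b ran with Prkar1a (r = 0.593, adjusted p = 0.059; rho = 0.664, adjusted p = 0.0862, exact permutation), with r of 0.404 without the 2 farthest arrays. So did Pkia (r = 0.582, adjusted p = 0.059; rho = 0.615, adjusted p = 0.0862, exact permutation), with r of 0.464. Prkar2b gave r of -0.271 (rho = -0.210; adjusted p = 0.489 and 0.795, exact permutation), and r was 0.02 without the 2 farthest arrays.

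Genes that act with the members were read from lists of the pathway. Prkx, an X-linked catalytic kinase that PKA regulatory subunits can bind, was higher in KO females, with 8.10 to 8.33 against 7.59 to 7.66 in WT females (log2 change 0.57 ± 0.08, adjusted p = 2.38e-05). The KO changes of Prkx were 0.26 for intact males (adjusted p = 0.373) and 0.25 for GDX males (0.0849). Another inhibitor gene, Pkib, was too dim to test, with group means of 4.61 to 4.77. Pja2, a ubiquitin ligase that marks regulatory subunits for degradation, was 9.63 ± 0.06 in KO females, against 9.79 ± 0.05 in WT females (change -0.16, adjusted p = 0.0395).

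A-kinase anchoring proteins, which tether the regulatory subunits, split in KO females: 4 of 25 were higher and 9 lower, beside 13.9% higher and 18.7% lower among all genes, and with a median change of -0.07, where all genes had -0.02. Synm, an intermediate filament protein, was 7.72 ± 0.47 in KO females, against 6.69 ± 0.13 in WT females (change 1.04 ± 0.19, adjusted p = 0.000275). Map2, a neuronal microtubule protein, was 6.31 ± 0.36 in KO females, against 7.13 ± 0.17 in WT females (-0.81 ± 0.18, adjusted p = 0.00144). Akap6 and Akap7 were lower by -0.73 and -0.49 on the log2 scale (adjusted p of 0.00694 and 0.000481). Akap6 was dim in these groups, with 3.81 to 4.63 in KO females and 4.74 to 5.27 in WT females. Both group means (4.26 and 4.99) lay below the floor of 5, whereas every intact male array was over it. The female call of Akap6, counted among the 9 lower, therefore compares signals near or below the floor. In GDX males Arfgef2 alone passed (0.31 ± 0.08, adjusted p = 0.0291), where 4.23% of all genes did. In intact males no anchoring protein passed, where 0.111% of all genes did.

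Upstream and downstream of the kinase, the lists moved as follows in KO females, where 13.9% of all genes were higher and 18.7% lower. Of 7 adenylyl cyclases, which make cAMP, 4 were lower and none higher, led by Adcy6 (6.38 ± 0.27 in KO females, against 7.25 ± 0.15 in WT females, adjusted p = 8.9e-06). Of 14 phosphodiesterases, which degrade cyclic nucleotides, 3 were higher, among them Pde8a (0.77, adjusted p = 1.24e-05), and 3 were lower, Pde3b (-1.42), Pde2a (-0.65) and Pde3a (-0.43). The group means of Pde3b ran in the same order as the adipocyte marker means. Both were lowest in KO females (6.24 and 7.48) and highest in WT GDX males (7.83 and 9.10). The part of adipocyte RNA in the Pde3b change was not tested. Of 7 CREB-family factors and coactivators, 6 were lower and none higher, including Crtc3 (-0.41), Ep300 (-0.34), Crtc1 (-0.33) and Crebbp (-0.27), with a list median of -0.27. Of 8 G protein and ACTH receptor genes, Mrap, the accessory protein that brings the ACTH receptor to the cell surface, was higher (1.21, adjusted p = 1.95e-07) and Gnai3, an inhibitory G protein subunit, was lower (-0.26). Of 6 other cAMP effectors, the channel gene Hcn3 was higher (0.35) and Rapgef2 was lower (-0.30), and of 2 phosphatase regulators Ppp1r1a was lower (-0.51, adjusted p = 0.0457). In GDX males Mrap was the only gene of these lists past the test (0.76, adjusted p = 0.000838), where 4.23% of all genes passed. In intact males none passed, where 0.111% of all genes did.

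The genes whose pattern over the 24 arrays was most like that of Prkar1a were Itga6 (r = 0.941), Tpst1 (0.918), Pam (0.911), Cdh6 (0.910) and Ntn4 (0.904), and the most opposite were Nxph1 (-0.916), Shank2 (-0.897), Slc47a1 (-0.893), Idh1 (-0.892) and Slc3a2 (-0.887). Those most like Prkar1b were Smpd3 (0.892), Galnt16 (0.890) and Tbx3 (0.887), and those most like Pkia were Kif1a (0.921), Slco3a1 (0.895) and Slc7a14 (0.885). Those most like Prkaca were Slc25a39 (0.845), Glul (0.820) and Zfyve27 (0.804). These correlations describe 24 arrays that share 6 group means. Among the members themselves, Prkar1b ran with Pkia (r = 0.776) and Prkacb (0.774), and within groups these values were 0.517 and 0.573.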

How the data were processed

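Whole-adrenal RNA (500 ng) was labelled with the GeneChip WT PLUS kit, per the labels' protocols. The authors deposited log2 signals of 32202 probe sets in 24 arrays, made with RMA per the submitters' processing notes. RMA corrects background, quantile-normalizes and summarizes probes, so a change shared by all genes would not be seen. The RMA software and annotation build were not given in the sources used here. GEO's platform annotation gave 1 symbol for 22943 probe sets, several for 1731 and none for 7528. Probe sets with several symbols named no gene, and the probe set of highest mean represented a gene.

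Group means were fitted in limma 3.58.1 (R 4.3.3, lmFit and eBayes, 18 residual and 3.41 prior degrees of freedom) over 14411 genes with log2 signal over 5 in at least 4 arrays. Benjamini-Hochberg adjustment ran over all genes of each contrast, with a call at 0.05. Every adjusted p of a contrast comes from this fit, unless a left-out array, a covariate or another setting is named with it. Each such setting was fitted and adjusted anew. Errors are SE of changes and SD of levels. The fit was tested on simulated data. Correlation p-values came from exact enumeration or 100000 permutations within groups. The number of arrays limits the precision.

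All members, 4 genes at most per pathway list by size of change among those past the test, and the most alike genes were named by rule. The members and lists were chosen with earlier results of these data known. Same-numbered arrays did not deviate together in females (correlations of -0.08 to 0.01) or intact males (-0.17 to 0.02), but did in GDX males (0.12 to 0.24), whose numbers were therefore also used as a block. Alternatives covered filters, normalization, probe set choice, moderation, blocks, marker means as covariates and leaving out each array.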

Additional observations from a re-analysis of the deposited data

Results flagged for a closer look

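WT GDX male 1 had a Prkar1b log2 signal of 7.74, far from the other 3 arrays of its group, which lay between 7.03 and 7.10. It was the only extreme array among 42 groups of a member examined, and chance alone marks about 1 in 20 such groups. The same animal is the only WT GDX male with neither Cre nor a floxed allele, and its medulla marker mean, 9.18, was the highest of its group. The part of either in the Prkar1b value was not tested.

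The KO effect differed between females and intact males, by a test of the difference itself, for Prkar1b (-0.67), Prkar2a (0.33) and Prkaca (0.35), all as log2 differences of female minus intact male effects. The KO effect on Prkar1b also differed between females and GDX males (-0.88). The WT references of these effects differ in Cre and in floxed alleles, so sex cannot be told apart from control genotype.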

How the results depend on the processing

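The number of members past the test in KO against WT females was 4 and stayed at 3 to 5 except with 2 marker covariates. It was 1 with the medulla mean, where 2458 genes passed in all, against 4694 without it. It was 0 with the glomerulosa mean, a covariate chosen after seeing the data, where 3 genes passed in all. Neither mean overlapped between KO and WT females, so these fits cannot tell a member's KO change apart from the marker difference. The glomerulosa mean also gave 0 for GDX males, for both effect differences that involve females, for females against intact males of either genotype, and for GDX against intact KO males. The medulla mean gave 0 for both of those effect differences and 1 for KO females against KO intact males. Prkar2b in WT females against WT intact males (1 member) was lost without the dim-probe filter and with the replicate block (0 each), and its count was 0 to 1 when single arrays were left out. With only those 2 groups fitted, Prkar1a passed in its place (-0.31, adjusted p = 0.0253). GDX against intact KO males gave 2 with a filter at 6 and with trend and robust moderation, and 1 to 2 without single arrays. Leaving out single arrays gave 0 to 1 in intact KO males, 1 to 2 in KO GDX males and 0 to 1 for GDX against intact WT males.

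The replicate block changed no other call of a member. With the GDX arrays alone and the block, Prkar1a was again the only member called (1), while 118 genes passed in all, against 609 without it.

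With the glomerulosa mean as a covariate, the female KO change of Prkar1b, which passed at -0.59, turned to 0.0864 (adjusted p = 0.968). In KO females against KO intact males, Prkar1a turned from -0.81 to 0.29 (adjusted p = 0.879) and Prkacb from -0.20 to 0.01 (0.984). Changes that had not passed also turned sign: in females Prkacb (0.11) with the glomerulosa mean; in intact males Prkar1b (-0.10) with the medulla mean, and Prkacb (0.0374) and Pkia (0.0854) with the glomerulosa mean; in GDX males Prkacb with further quantile normalization (0.00297) and the glomerulosa mean (0.0761). Without single arrays the ranges were -0.0798 to 0.0654 for Pkia and -0.0404 to 0.00363 for Prkacb in intact males, and -0.0266 to 0.21 for Prkar2b, -0.0345 to 0.0886 for Pkia and -0.0482 to 0.0387 for Prkacb in GDX males. The cause was not tested. Prkaca passed in the effect difference by 0.35, and with further quantile normalization it was 0.27 (adjusted p = 0.0502). Pkia lay close to the signal floor, and its female call held without the filter (adjusted p = 0.0346) and with a filter at 6 (0.0209). No female array of Pkia was over 6 (highest 5.86), so it met that filter through intact male arrays. The filter at 6 is therefore no check on the female call, which was lost with only the female groups fitted (adjusted p = 0.0894).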
